A study of Saccharomyces cerevisiae with 42 samples.

Results

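The 43 genes described here encode the sorting machinery of the yeast endosome and vacuole: the ESCRT complexes, retromer and its sorting nexins, the HOPS and CORVET tethers, the Rab5 and SNARE module, a sorting receptor and the endosomal PI3-kinase. They were picked by symbol, by a rule that names no measured value but was written with earlier results of these data known, from the 6106 genes of the table, and all 43 were found, 5 of them under another RefSeq symbol (PEP8 for VPS26, PEP5 for VPS11, PEP3 for VPS18, VAM6 for VPS39 and PEP1 for VPS10). RNA-seq had been done on 42 samples of budding yeast, 3 in each of 14 groups, taken hourly from 0 to 6 h with vehicle or with myriocin (Myr), an inhibitor of serine palmitoyltransferase, the first enzyme of sphingolipid synthesis. Values are TPM, transcripts per 1000000, which are scaled for transcript length and give each mRNA as a share of its library.

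All cells were of the haploid laboratory strain BY4741, made prototrophic with the plasmid pHLUM, which carries the marker genes that this strain lacks. Cells of a saturated overnight culture were diluted to an A600 of 0.15 in 200 ml of SDC medium at 30°C. The 7 vehicle groups held 0.3% ethanol, and the 7 Myr groups held 0.3% ethanol and 700 ng/ml Myr, each at 0, 1, 2, 3, 4, 5 or 6 h after dilution. The drug was in the medium before the cells, so the 0 h groups stand closest to the saturated culture. All hours of a replicate were drawn from a single flask. The columns of the table carry a letter but no replicate number, so each library was taken as 1 of 3 of its group. Vehicle columns carry 4 letters, A to D, and not the same 3 at every hour: B, C and D at 4 h but A, B and C at 5 h. Myr columns carry 3 letters, A to C. Libraries are named here by their letter. P-values measure only the spread between these samples. Averages over hours, comparisons between hours and the interaction test treat hours as independent, though hours of a replicate shared a flask.

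Membrane proteins that carry ubiquitin are taken from the endosome surface into internal vesicles by ESCRT-0, -I, -II and -III acting one after another, and the ATPase Vps4 then takes the ESCRT-III polymer apart. Retromer works the other way and returns receptors such as Vps10 from the endosome to the Golgi. Fusion of endosomes with each other and with the vacuole needs the Rab5 GTPase Vps21, the syntaxin Pep12, the tethers CORVET and HOPS, and the lipid PI3P made by Vps34, which also recruits ESCRT-0 and several sorting nexins.

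Libraries of a group correlated over genes at r of 0.976 to 0.995, and the read depth behind the TPM is unknown. The mating type a genes MFA1, MFA2, STE2, AGA2 and BAR1 should be expressed by this strain. Their medians over the 42 libraries were 3140, 8205, 254, 176 and 48.6 TPM. For MF(ALPHA)1, MF(ALPHA)2 and STE3 of the opposite mating type they were 4.82, 15.3 and 8.93 TPM. BAR1 was as low as 7.27 TPM, and MF(ALPHA)1 as high as 64.8 TPM, over the libraries. In 4 vehicle libraries (A and B at 3 h, B at 4 h and A at 5 h) the short ribosomal gene RPL41A took over 70000 TPM, 71452 to 107109 TPM against 31548 to 45357 TPM in the other 5 vehicle libraries of 3 to 5 h and 20897 to 35715 TPM in the 9 Myr libraries of those hours. Its part in the results below was not tested, but counts that moved by over 1.5 times without these libraries are given beside the result. The others moved by less: without them 34 members in place of 39 passed at 5 h, 36 in place of 40 over the mean of 1 to 6 h 23 in place of 19 in the interaction test, and 34 in place of 32 and 40 in place of 38 from 1 to 6 h in vehicle and with Myr. Over all genes tested the median difference between Myr and vehicle on the log2(TPM + 1) scale was not at 0: it was 0.20 at 2 h, 0.27 at 3 h, 0.31 at 5 h and 0.15 at 6 h. Differences of the 43 genes are therefore given beside that shift.

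The upstream regions of the genes with the largest differences at 5 h are shown first. The motif AGGGG (STRE, the site of the stress factors Msn2 and Msn4) was searched on both strands in the 500 bases before each start codon of the R64 assembly (RefSeq). It was present for 17 of the 43 genes (39.5%) and for 34.1% of 6006 such regions, so its share among these genes was near that of all genes. PEP12 (YOR036W, chrXV:400348-401214), VPS36 (YLR417W, chrXII:955010-956710) and HSE1 (YHL002W, chrVIII:102612-103970) held 2 matches each, VPS68 (YOL129W, chrXV:77560-78114) and VPS17 (YOR132W, chrXV:573175-574830) held 1, and MVB12 (YGR206W, chrVII:910432-910737), the gene with the lowest difference, held 0. The sequences below run 5′ to 3′ on the plus strand, which is the coding strand of these genes, and the capitals mark AGGGG or its reverse complement CCCCT. PEP12 and MVB12 were picked by their difference at 5 h under a fixed rule, the other genes after their values were seen.
PEP12, chrXV:400000-400028: tttttggacatcAGGGGtggatttcaaag
PEP12, chrXV:400250-400278: ccagagtataatCCCCTataaaacaggcc
VPS36, chrXII:954510-954537: gatgttgaaagAGGGGgggagtggagag
VPS36, chrXII:954937-954965: ccaagatagaatAGGGGacctcggctagg
HSE1, chrVIII:102130-102158: cgtttttcactaCCCCTgggctgccctcg
HSE1, chrVIII:102546-102574: actgttaaatatAGGGGccatgccagagg
VPS68, chrXV:77455-77483: taatgtgcagcgCCCCTttcataaagaag
VPS17, chrXV:573021-573049: aattttgtagaaAGGGGacgttttcaaga
A match here is only a run of letters, not a measured site. In the genes shown, the nearest match lies 54 bases before the start codon of HSE1, 61 for VPS36 and 86 for PEP12. It lies at 93 bases for VPS68 and 142 for VPS17. Matches of BRO1 and SNF7, not shown, lie at 81 and 83 bases. SNF7 also held 2 matches, with a smaller difference at 5 h. VPS60, VPS26, VPS27, VPS25 and VPS34, all higher with Myr at 5 h, held 0, as did MVB12. SNX4 and BRO1, also higher, held 1 each, and so did SNX3 and VTA1, which did not pass at 5 h. The proteasome motif GGTGGCAAA (PACE) was found for 0 of the 43 genes and 1.65% of all regions, and the Gcn4 motif TGACTC for 4 of 43 (9.3%) and 12.65%, in genes other than those with AGGGG.

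The 43 genes spanned a wide range of levels. In vehicle at 0 h the highest was VPS21, the Rab5 GTPase, at 392 ± 20.5 TPM (SD, n = 3), then VPS68 at 296 ± 14.9 TPM, PEP12 at 208 ± 22.8 TPM, DID4 at 175 ± 9.44 TPM and SNF7 at 160 ± 1.96 TPM. In this order the libraries of PEP12 and DID4 overlapped and those of the other neighbours did not. VPS15, the regulatory kinase of the PI3-kinase complex, was lowest at 4.92 TPM. By complex, the median member in vehicle at 6 h stood at 64.2 TPM for the ESCRT-III core and 45.8 TPM for Vps4 and its late partners. It stood at 28.2 TPM for retromer and sorting nexins, 14.9 TPM for the shared Vps-C core, 10.2 TPM for the ends that make HOPS or CORVET and 9.08 TPM for the PI3-kinase. By these medians the tethers and the lipid kinase lay several-fold below the ESCRT-III subunits.

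Dilution into fresh medium was followed by a fall in nearly all of the genes as shares of mRNA. From 0 h to 1 h in vehicle 40 of 43 fell and 0 rose, where 52.6% of all 5983 genes tested fell and 29.3% rose (limma on log2(TPM + 1), adjusted p under 0.05). The summed share of the 43 genes went from between 0.269% and 0.286% of TPM in the vehicle libraries of 0 h to between 0.104% and 0.116% at 1 h. The median change was -1.16 on the log2(TPM + 1) scale against -0.38 over all genes. These are bulk values, so fewer cells that express a gene and less of its RNA per cell cannot be told apart. With scaling to the spike-ins the direction was not kept for many of the genes: 14 were higher and 8 lower, against 60.7% and 18.5% of all genes. The median of all genes was then 0.88.

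PEP12, the syntaxin of the endosome, fell most. It stood at 222, 220 and 181 TPM in the 3 vehicle libraries of 0 h and at 15.3, 15.5 and 17.0 TPM at 1 h. The groups lay far apart, and the change was -3.62 (SE 0.11, adjusted p = 2.21e-25). VPS68, a membrane protein that works with Vps55 in late endosome sorting, fell from 312, 284 and 291 TPM to 47.0, 36.2 and 42.2 TPM, a change of -2.80 (SE 0.09, adjusted p = 3.5e-24). The sorting nexin gene SNX4 fell by 2.18, the ESCRT-III gene DID4 by 1.90 and the nexin gene VPS17 by 1.84 on the same scale. The genes that did not pass the test were VPS4, VPS9, which encodes the nucleotide exchange factor of Vps21, and the CORVET gene VPS3, with changes of 0.07, 0.31 and -0.11. Complexes differed in size of change without a test of that difference: the median was -1.22 for ESCRT-0, -1.34 for ESCRT-I, -1.32 for ESCRT-II and -1.28 for the ESCRT-III core, but -0.48 for the Vps-C core and -0.45 for the HOPS and CORVET ends.

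Most of the genes then climbed again. In vehicle 32 of 43 were higher at 6 h than at 1 h and 0 were lower, against 43.8% and 26.9% of all genes. With Myr 38 were higher and 0 lower, against 51% and 22.2%. The median change was 0.70 in vehicle and 0.91 with Myr, and that of all genes was 0.17 and 0.31. VPS68 rose most, by 2.45 (SE 0.09) in vehicle and 2.86 (SE 0.09) with Myr, and VPS15 rose by 1.72 and 1.55 (SE 0.10 for both), from 0.969, 0.909 and 1.25 TPM in vehicle at 1 h. All 7 retromer and sorting nexin genes, all 4 of the Vps-C core and all 3 of the PI3-kinase were higher at 6 h in both treatments. ESCRT-0 did not pass the test in vehicle: HSE1 had a change of 0.09 and VPS27 of 0.06, while with Myr they rose by 0.73 and 0.46. With spike-in scaling the counts were 18 higher and 2 lower in vehicle, against 23.4% and 33.2% of all genes. With Myr they were 22 higher and 0 lower, against 28% and 29.2%. The plot of library values by hour shows the fall and the return for 6 of the genes.

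**Figure D1:**
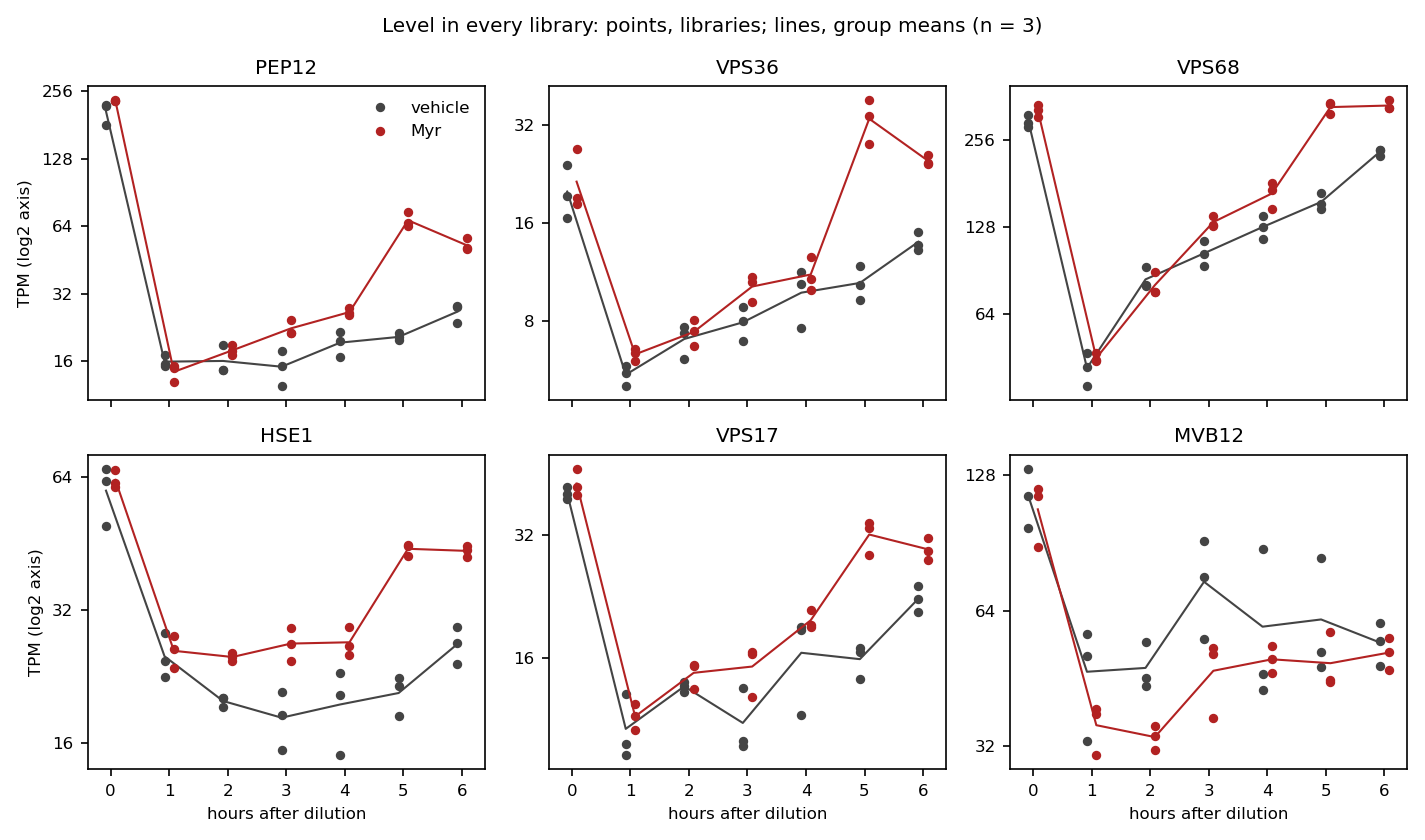
TPM on a log2 axis against hours after dilution for PEP12, VPS36, VPS68, HSE1, VPS17 and MVB12, with vehicle in grey and Myr in red. Points are single libraries and lines join the means of 3. The first 5 genes separate by treatment at 5 h (PEP12 at 19.9 to 21.3 TPM in vehicle and 63.8 to 73.9 TPM with Myr), and MVB12 has high vehicle libraries at 3, 4 and 5 h.

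How Myr changed these mRNAs, and when, was asked hour by hour. At 0 h 3 genes were higher with Myr and 1 was lower, against 8.26% and 3.63% of all genes. They were the HOPS gene VPS41, the Vps-C gene VPS18, VPS15 and, lower, the sorting nexin gene SNX3. VPS41 stood at 12.1, 10.6 and 13.3 TPM in vehicle and 18.1, 17.0 and 19.3 TPM with Myr, groups that did not overlap (difference 0.56, SE 0.12, adjusted p = 0.00291). SNX3 differed by -0.31 (SE 0.10, adjusted p = 0.0339). The count was 1 without vehicle library B or Myr library A or C and 2 without vehicle library A of 0 h. Of all genes 3.08%, 6.3%, 3.38% and 6.62% were higher in these omissions, in that order. Lower were 1.62%, 1.99%, 2.98% and 4.93%. None of the 4 passed when only the 0 h groups were fitted, where 0 genes of the 43 and 0 of all 5983 genes passed. By limma 12 passed without the RPL41A-rich libraries, where 14.6% of all genes were higher and 6.72% lower. With all libraries 12 had an unadjusted p under 0.05.

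At 1 h 0 of the 43 genes passed in either direction by limma, with 0 at an unadjusted p under 0.05, against 2.42% higher and 3.01% lower of all genes. At 2 h 4 were higher and 0 lower, against 16% and 2.49%. They were BRO1, which brings the deubiquitinase Doa4 to the endosome, VPS18, VPS3 and VPS10, by 0.30 to 0.43. None passed without vehicle library C or D, or without any 1 of the 3 Myr libraries. Median centring gave 3 higher and 5 lower, against 9.44% and 9.26% of all genes. This centring divides each library by the median, over genes, of TPM relative to the gene's mean over libraries. In other settings more genes passed at 2 h: 42 with spike-in scaling, 15 when only the groups compared were fitted and 16 without the RPL41A-rich libraries. Of all genes 94.6%, 39.7% and 43.9% were higher in these settings, and 0.15%, 3.71% and 4.75% lower.

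At 3 h 28 of the 43 genes were higher with Myr and 1, MVB12, was lower, against 39.4% and 2.62% of all genes. This count moved with single libraries, as did the share of all genes. It was 2 without vehicle library B, 3 without vehicle library A, 4 without Myr library B and 6 without Myr library A, and 0 without the RPL41A-rich libraries A and B, by limma. It was 4 when only the 3 h groups were fitted. All genes called higher fell to 2.77%, 3.61%, 4.73% and 4.63% in the single omissions, in that order, and to 5.52% with only the 3 h groups. The members' median was 0.31 with all libraries and 0.27, 0.26, 0.31 and 0.29 in those omissions. Without the RPL41A-rich libraries only vehicle library D was left at 3 h. The members' median was then 0.11 and that of all genes 0.09. With median centring 4 were higher and 0 lower, against 3.74% and 4.98% of all genes. Most of the 3 h calls were therefore not made relative to the median gene. HSE1, PEP12, VPS30 and VPS35 passed on both scales. HSE1 and PEP12 differed by 0.54 (SE 0.12) and 0.55 (SE 0.11) on log2(TPM + 1) and by 0.28 and 0.29 after centring. These calls, like the others at 3 h, depended on the RPL41A-rich libraries. Without those, and so with only vehicle library D left, the estimate of PEP12 was 0.32. At 4 h 3 were higher and 0 lower, against 6.12% and 0.953% of all genes. These were HSE1 (0.47), PEP12 (0.44) and VPS68 (0.38). The 4 h count was 0 without vehicle library B or Myr library A and 6 without vehicle library C or D. It was 1 without the RPL41A-rich libraries, 0 when only the 4 h groups were fitted and 42 with spike-in scaling. In these settings 2.99%, 0.685% and 90.5% of all genes were higher.

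The 5 h samples stood apart. With Myr 39 of 43 genes were higher and 0 lower, against 52.2% and 3.99% of all genes, and the median difference was 0.54 against 0.31. In 39 genes all 3 Myr libraries lay above all 3 vehicle libraries, which held for 64.7% of all genes, and in 0 genes did all lie below, against 5.01%. The summed share was 0.130% to 0.142% of TPM in vehicle and 0.203% to 0.217% with Myr. After median centring 28 of the 43 passed as higher and 0 as lower, with a median of 0.21, against 22.2% and 22.5% of all genes. All 28 are among the 39. Of the other 11, 6 lost the call and 5 (VPS28, VPS24, VPS4, VPS18 and VPS9) had estimates below 0 after centring. The 4 genes that did not pass at 5 h on the first scale were SRN2, MVB12, VTA1 and SNX3. VPS18 passed with overlapping groups, and VTA1 did not pass though its groups did not overlap.

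**Figure D2:**
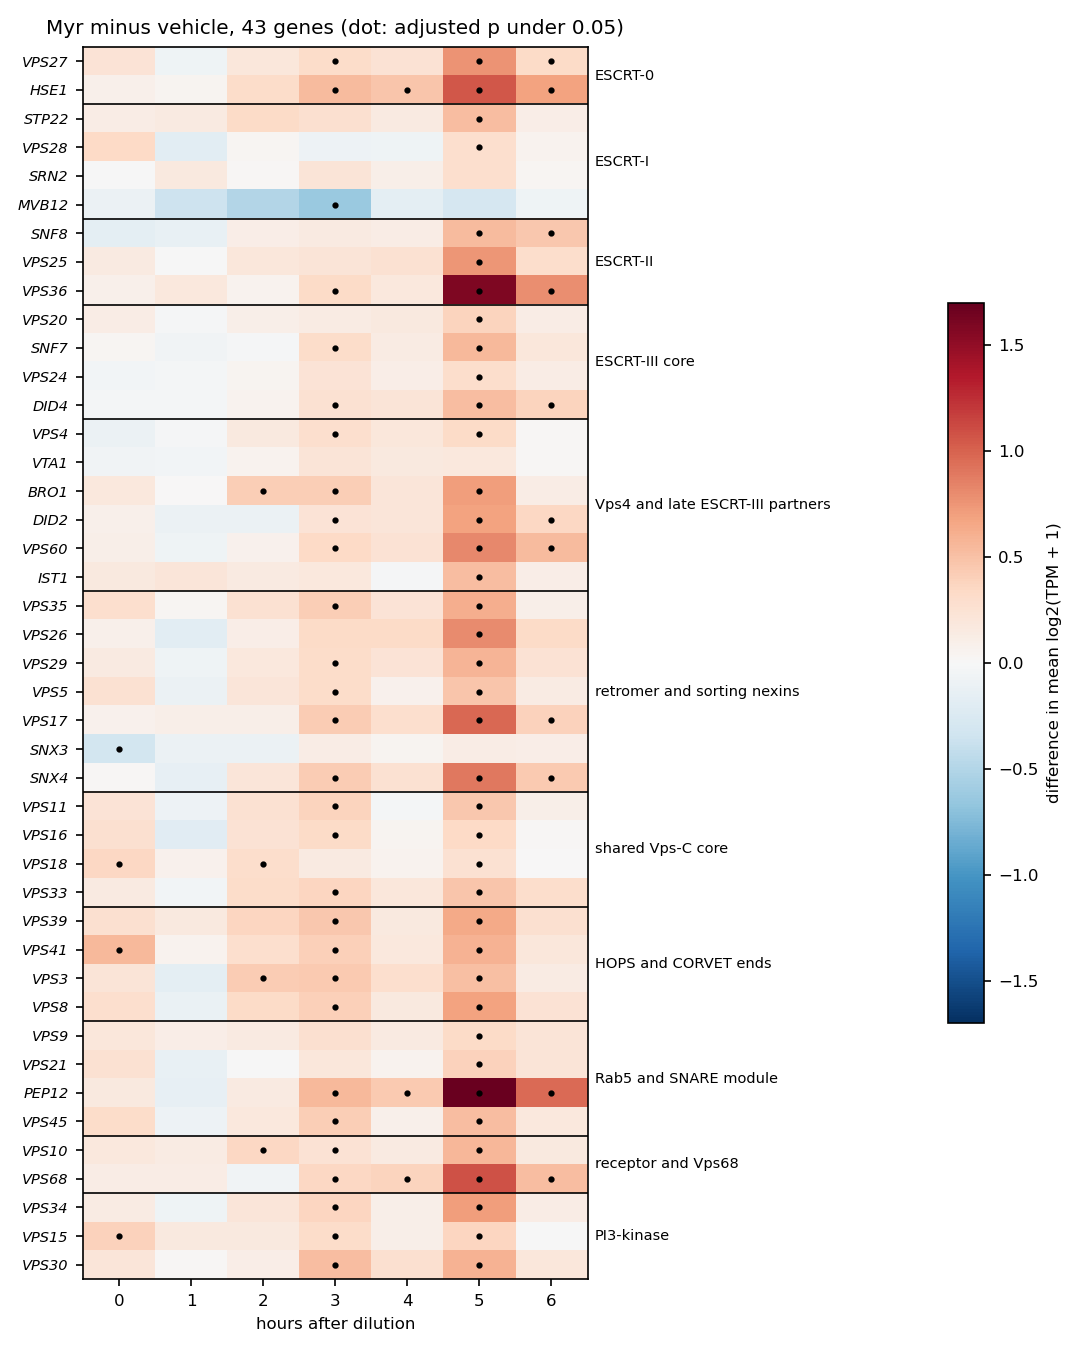
Difference between Myr and vehicle in mean log2(TPM + 1) for the 43 genes (rows, grouped by complex) at 0 to 6 h (columns), red where higher and blue where lower with Myr. Dots mark an adjusted p under 0.05, and the 5 h column holds 39 of them.

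PEP12 had the largest difference of the 43 genes. At 5 h it stood at 19.9, 20.4 and 21.3 TPM in vehicle and at 63.8, 73.9 and 66.4 TPM with Myr. The lowest Myr library was at about 3 times the highest vehicle library, and the difference was 1.68 (SE 0.11, adjusted p = 1.48e-13). After centring it was 1.34. At 6 h PEP12 was at 23.8, 27.9 and 28.1 TPM in vehicle and at 56.7, 51.0 and 50.4 TPM with Myr (0.96, SE 0.11, adjusted p = 6.93e-08). Even so, its mean at 5 h with Myr was 32.7% of its mean in vehicle at 0 h, and 9.89% in vehicle. The other genes of the Rab5 and SNARE module moved less: VPS21 differed by 0.39 (SE 0.09), VPS45, whose product binds Pep12, by 0.52 (SE 0.13), and VPS9 by 0.32 (SE 0.14). The ratio of PEP12 to VPS45 within a library, which no scaling of whole libraries can move, was 0.926 to 1.07 in vehicle and 2.10 to 2.48 with Myr at 5 h. At 0 h it had been 4.34 to 6.17 in vehicle. Ratios given here and below were chosen after the values were seen.

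VPS36, the ESCRT-II subunit that binds PI3P and ubiquitin, was next. It stood at 9.28, 10.3 and 11.8 TPM in vehicle and 28.1, 38.1 and 34.2 TPM with Myr at 5 h, with no overlap (1.58, SE 0.12, adjusted p = 7.23e-12). At 4 h the groups had overlapped, at 7.6 to 11.3 and 9.9 to 12.6 TPM. At 6 h the difference was 0.79 (SE 0.12, adjusted p = 1.44e-05). With Myr at 5 h its mean reached 167% of that in vehicle at 0 h, against 52.4% in vehicle. Its partners in the complex, SNF8 and VPS25, were higher by 0.54 (SE 0.10) and 0.75 (SE 0.13). The ratio of VPS36 to SNF8 rose from 0.244 to 0.308 in vehicle to 0.520 to 0.628 with Myr at 5 h, and that to VPS25 from 0.355 to 0.475 to 0.664 to 0.868. All 3 ESCRT-II genes passed after centring too.

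The ESCRT-0 pair, whose products hold ubiquitinated cargo at the start of the pathway, was higher with Myr in both genes. HSE1 was at 18.4, 21.5 and 22.4 TPM in vehicle and 42.4, 44.9 and 44.7 TPM with Myr at 5 h (1.05, SE 0.12, adjusted p = 1.13e-08). VPS27 was at 15.8, 18.2 and 18.4 TPM against 28.7, 31.9 and 30.2 TPM (0.76, SE 0.11, adjusted p = 7.77e-07). HSE1 differed more than its partner: the ratio of HSE1 to VPS27 was 1.16 to 1.22 in vehicle and 1.41 to 1.48 with Myr at 5 h. This ratio was already apart at 4 h, at 1.20 to 1.24 in vehicle and 1.32 to 1.50 with Myr. Neither gene had overlapping groups at 5 h or 6 h, where they differed by 0.69 and 0.33 and both passed. HSE1 was the only 1 of the 43 besides PEP12 and VPS68 to pass at 3, 4, 5 and 6 h with all libraries. The 3 h calls depended on the RPL41A-rich libraries, and without these 1 of the 43 passed at 4 h.

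ESCRT-I, the next complex, differed least. STP22, which encodes the ubiquitin-binding subunit also called Vps23, was at 10.6, 11.5 and 13.3 TPM in vehicle and 14.9, 16.9 and 20.4 TPM with Myr at 5 h (0.52, SE 0.13, adjusted p = 0.0012), but it did not pass once a trend on coding length was removed (0.13, adjusted p = 0.163). VPS28 passed with 0.29 (SE 0.12, adjusted p = 0.0465), but its estimate after centring was -0.05. SRN2 had 0.29 and overlapping groups (adjusted p = 0.056). MVB12, a small subunit that stabilises the complex, had the lowest estimate of the 43 genes, -0.28 (SE 0.22, adjusted p = 0.271), with 83.7, 48.0 and 51.8 TPM in vehicle and 44.9, 57.5 and 44.4 TPM with Myr. At 5 h ESCRT-I had 2 of 4 genes called and a median of 0.29, near the 0.31 of all genes, and after centring 1 of 4 and a median of -0.04.

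MVB12 was the only gene of the 43 that passed as lower with Myr at any hour from 1 to 6 h or over their mean on log2(TPM + 1). At 3 h it was at 75.9, 91.3 and 55.3 TPM in vehicle and 37.1, 51.2 and 52.9 TPM with Myr, groups that did not overlap, with a difference of -0.63 (SE 0.22, adjusted p = 0.0302). Its high vehicle values lay in the RPL41A-rich libraries: it was at 75.9 to 91.3 TPM in those 4, at 42.7 to 55.3 TPM in the other 5 vehicle libraries of 3 to 5 h and at 37.1 to 57.5 TPM in the 9 Myr libraries of those hours. Without the 4 libraries the 3 h difference was -0.25 (adjusted p = 0.713), with spike-in scaling 0.20, and after centring -0.91 (adjusted p = 0.0592). The mean difference over 1 to 6 h was -0.33 with all libraries (adjusted p = 0.00176) and -0.17 without them (adjusted p = 0.0333), and with spike-in scaling it was 0.24. MVB12 also had the shortest coding sequence of the 43, at 306 bases. The part of RPL41A or of length in its difference was not tested.

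The ESCRT-III core genes were all higher at 5 h, by 0.30 to 0.55. SNF7, the main filament subunit, was at 68.8, 68.8 and 77.1 TPM in vehicle and 106, 103 and 106 TPM with Myr, without overlap (0.55, SE 0.10, adjusted p = 5.13e-05). DID4 (Vps2) was higher by 0.53, VPS20 by 0.38 and VPS24 by 0.30. All 4 passed, but after centring SNF7 and DID4 did and VPS20 and VPS24 did not. Among the genes for Vps4 and its partners 5 of 6 were higher. VPS60, a late ESCRT-III subunit, was at 40.4, 45.3 and 51.0 TPM in vehicle and 78.4, 82.5 and 80.2 TPM with Myr (0.81, SE 0.13, adjusted p = 1.07e-05). BRO1 (0.71), DID2 (0.68) and IST1 (0.52) passed as well. VPS4 itself differed by 0.32 (SE 0.10, adjusted p = 0.0105), near the 0.31 of the median gene, and its cofactor gene VTA1 by 0.18 (adjusted p = 0.206).

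Retromer and the sorting nexins had 6 of 7 genes higher at 5 h, and the same number after centring. The nexin gene VPS17 was at 14.2, 16.6 and 16.9 TPM in vehicle and 28.6, 33.4 and 34.3 TPM with Myr (0.97, SE 0.14, adjusted p = 1.59e-06). SNX4, whose product acts in recycling from endosomes and in autophagy, was at 20.8, 23.1 and 24.5 TPM against 41.4, 43.7 and 44.2 TPM (0.89, SE 0.12, adjusted p = 7.12e-07). In neither gene did the groups overlap. The 3 genes of the cargo-binding trimer were higher by 0.80 (VPS26), 0.61 (VPS35) and 0.57 (VPS29), and VPS5, the partner of VPS17, by 0.48. The ratio of VPS17 to VPS5 was 0.829 to 0.875 in vehicle and 1.10 to 1.32 with Myr. VPS5 overlaps VAM10 on the opposite strand over 345 bases, and the library kit keeps strand. SNX3, whose product binds PI3P and recruits retromer, had 0.12 (adjusted p = 0.285) and -0.21 after centring.

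All 8 tether genes were higher at 5 h, those of the core by less than those of the ends, a difference that was not tested. The Vps-C core, shared by HOPS and CORVET, had all 4 genes higher at 5 h, with a median of 0.39, but 0 of 4 after centring by limma. VPS33, which encodes its SNARE-binding subunit, had the largest difference: 9.45, 13.5 and 11.9 TPM in vehicle and 16.9, 15.4 and 16.5 TPM with Myr (0.47, SE 0.14, adjusted p = 0.00641). Without vehicle library A it did not pass (0.34, adjusted p = 0.0741), nor with the coding length trend removed (0.09, adjusted p = 0.29). The 4 genes for the ends that set HOPS (VPS39, VPS41) or CORVET (VPS3, VPS8) apart were all higher at 5 h on both scales, with medians of 0.62 and 0.30. VPS8 was at 6.29, 7.52 and 7.88 TPM in vehicle and 11.99, 11.9 and 12.6 TPM with Myr, which did not overlap (0.68, SE 0.12, adjusted p = 3.58e-05).

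The gene for the receptor of carboxypeptidase Y, VPS10, was higher by 0.56 (SE 0.10) at 5 h. VPS68 was at 147, 154 and 167 TPM in vehicle and 313, 339 and 342 TPM with Myr, far apart (1.08, SE 0.09, adjusted p = 1.08e-10), and it was the most abundant of the 43 mRNAs with Myr at that hour. At 6 h it was at 235, 226 and 236 TPM against 328, 329 and 350 TPM (0.53, SE 0.09, adjusted p = 9.76e-05). With Myr its 5 h mean was 112% of that in vehicle at 0 h, against 52.8% in vehicle. Of the PI3-kinase genes, VPS34, the catalytic subunit, was at 6.05, 6.17 and 6.70 TPM in vehicle and 11.1, 10.8 and 11.0 TPM with Myr (0.71, SE 0.13, adjusted p = 3.08e-05). VPS30, the yeast Beclin, was higher by 0.59 and VPS15 by 0.37, and VPS15 did not pass after centring.

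**Figure D3:**
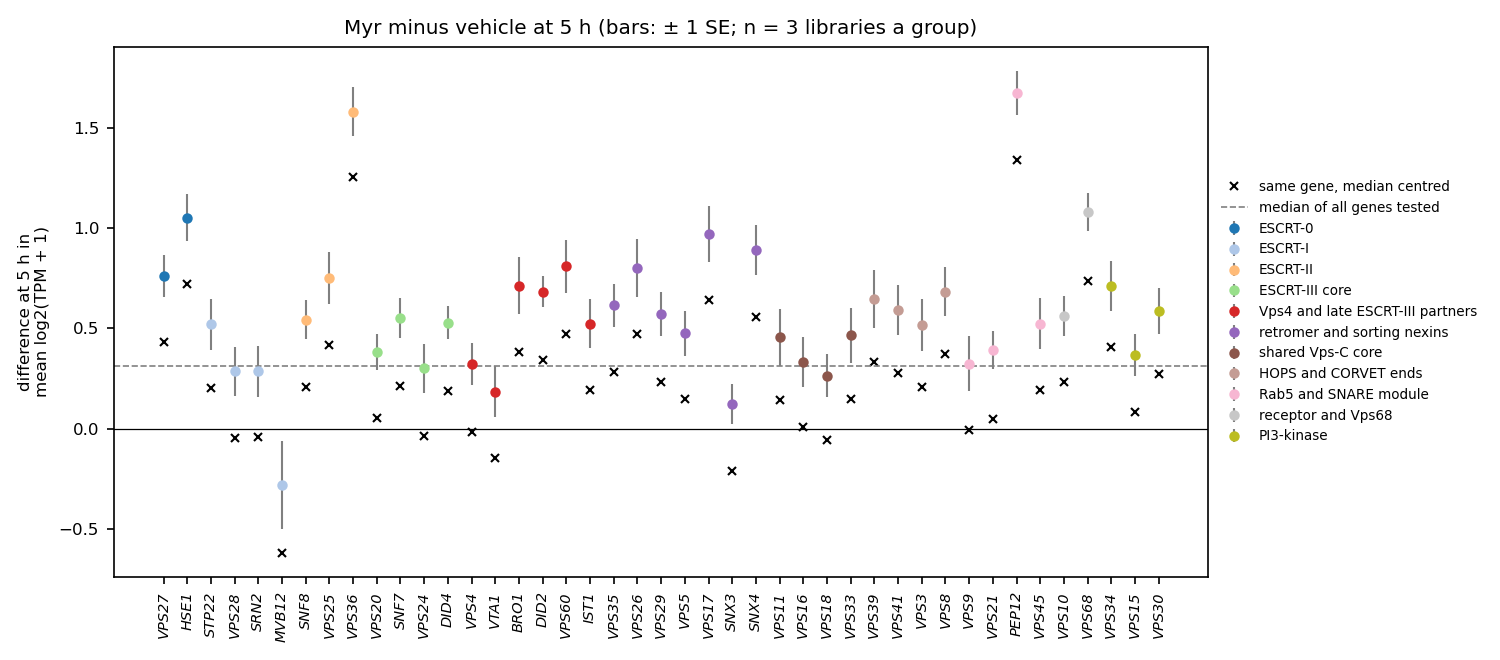
Difference between Myr and vehicle at 5 h in mean log2(TPM + 1), with 1 SE, for each of the 43 genes, coloured by complex, from 3 libraries a group. Crosses give the same gene after median centring and the dashed line the median of all genes tested, 0.31. PEP12 (1.68) and VPS36 (1.58) stand above the rest and MVB12 (-0.28) below.

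At 6 h 11 of the 43 genes were higher with Myr and 0 lower, against 19.6% and 3.43% of all genes, and the median of 0.19 was near the 0.15 of all genes. The 11 were VPS27, HSE1, SNF8, VPS36, DID4, DID2, VPS60, VPS17, SNX4, PEP12 and VPS68. The count was 19 without the RPL41A-rich libraries, 18 when only the 6 h groups were fitted and 23 with spike-in scaling. In these settings 33.2%, 30.2% and 44.3% of all genes were higher. After centring 10 were higher and 1, VPS4, was lower, against 17.1% and 11.9% of all genes. VPS17 (0.39, SE 0.14, adjusted p = 0.0449) passed narrowly and did not pass when any 1 library of 6 h was left out. Over the mean of 1 to 6 h 39 genes were higher and 1 lower, against 72.3% and 6.49% of all genes. After centring 22 were higher and 5 (MVB12, VPS28, SNX3, VPS21 and VTA1) lower, against 26.5% and 24.4% of all genes. Of the 40 called before centring, 10 lost the call with the same sign and 7 had estimates of the opposite sign. The call or direction over all hours thus depended on the scale for many of the genes. PEP12 (0.61), VPS36 and HSE1 (both 0.52) had the largest mean differences, and these 3 were also higher after centring.

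Whether the effect of Myr changed with the hour was tested directly. In 19 of 43 genes the hourly differences were unequal at an unadjusted p of 0.01 or less, against 22.6% of all genes, and in 21 at an adjusted p under 0.05, against 23.8%. The first count was 29 without vehicle library B of 4 h. For the interaction test the share of all genes is known only for the fit as reported. Counts of that test under the alternatives, here and elsewhere, therefore stand without it. PEP12 (adjusted p = 1.41e-09) and VPS36 (adjusted p = 1.51e-07) had the smallest values. From 4 h to 5 h the difference grew in 13 genes and shrank in 0, against 11.7% and 0.986% of all genes, with a median step of 0.41 against 0.19. The steps of VPS36 (1.40) and PEP12 (1.24) were the largest. This count also moved with single libraries, as did the share of all genes. It was 33 without vehicle library B of 4 h, 4 without C and 5 without D of that hour, 6 without vehicle library A of 5 h, 7 without Myr library B of 4 h and 7 without Myr library B of 5 h, and 29 without the RPL41A-rich libraries. It was 3 when only the groups compared were fitted and 2 with spike-in scaling, under which the interaction count was 5. The share of all genes whose difference grew was 42.7% without vehicle library B of 4 h and 33.9% without the RPL41A-rich libraries. That share was 7.66% to 8.52% in the other omissions named, 4.56% with only the groups compared and 1.44% with spike-in scaling. VPS36 and PEP12 kept a step above 1 after centring (1.21 and 1.04).

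The genes that fell most after dilution were in many cases those that differed most at 5 h. No library enters both comparisons. Across the 43 genes Pearson's r between the 0 to 1 h change in vehicle and the 5 h difference was -0.58 and Spearman's rho was -0.48, and without PEP12 and VPS68 they were -0.35 and -0.40. The same relation held over all 5983 genes tested (r of -0.45, rho of -0.49), so it was not particular to this machinery. Genes are not independent replicates, and the values share base composition and length. The 10 genes with the largest fall had a median 5 h difference of 0.80, from 0.29 to 1.68, and the 10 with the smallest change had 0.47, from 0.26 to 0.68. VPS15 and SRN2 fell by 1.54 and 1.59 and differed by 0.37 and 0.29 at 5 h, whereas VPS8 fell by 0.37 and differed by 0.68.

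**Figure D4:**
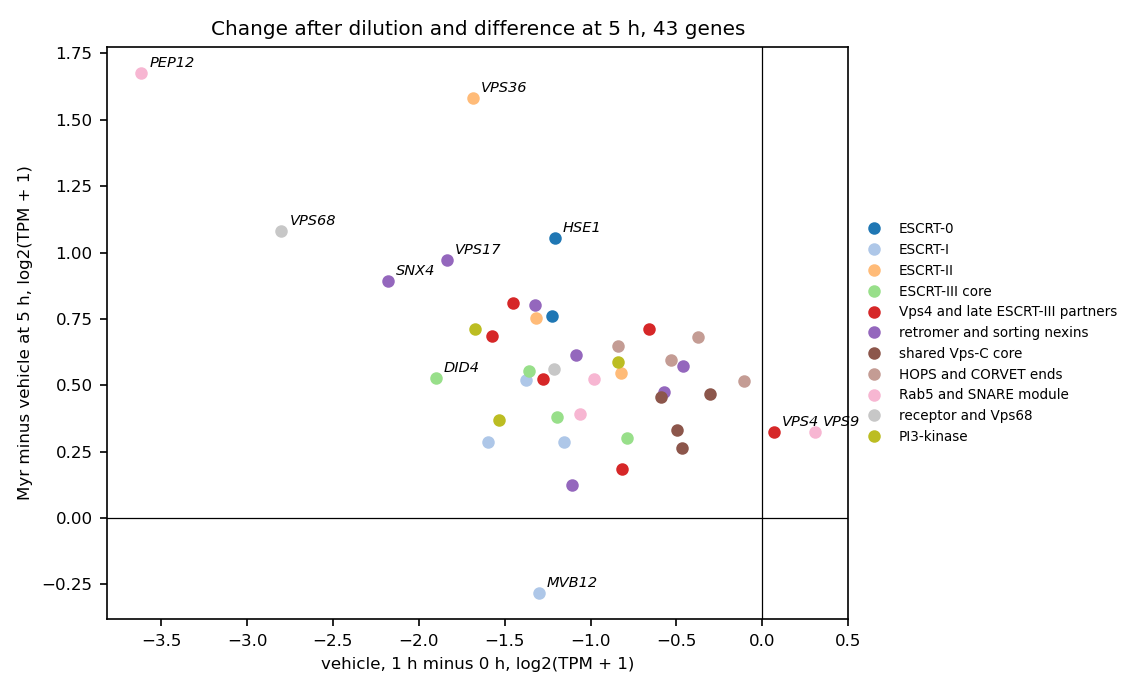
For each of the 43 genes, the change from 0 to 1 h in vehicle (x axis) and the difference between Myr and vehicle at 5 h (y axis), both on log2(TPM + 1) and coloured by complex. PEP12 lies at the upper left (-3.62 and 1.68), and VPS4 and VPS9 lie right of 0 with differences of 0.32.

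Neighbouring steps of the same routes were counted from lists of genes that are not among the 43, to be read against 52.2% higher, 3.99% lower and a median of 0.31 over all genes at 5 h. Of 13 genes for the Golgi adaptors GGA and AP-1, 11 were higher at 5 h and 0 lower, with a median of 0.57. They included GGA1, a ubiquitin-binding adaptor for transport to the endosome (1.49, SE 0.14, from 7.59 ± 0.815 to 23.1 ± 1.03 TPM), and ENT3 (0.91), which binds the same adaptors. Of 14 genes for AP-3 and vacuole fusion, 10 were higher and 2 lower, with a median of 0.39. VTI1, a SNARE of several endosomal steps, was higher by 0.91, while YPT7, the vacuolar Rab, and YKT6, a SNARE, were lower by 0.38 and 0.35, and these last were named after their values were seen. Of 12 GARP and Golgi return genes 10 were higher and 0 lower, with a median of 0.47. Of 11 lipid kinase partners and PI3P effectors 9 were higher and 0 lower, with a median of 0.36. Of 18 other endosome genes 14 were higher and 0 lower, with a median of 0.62. This last list held YPT53, a Rab5 paralog of VPS21, with the largest difference of any of the genes counted here: 1.41 ± 0.193 TPM in vehicle and 21.3 ± 4.57 TPM with Myr at 5 h (3.19, SE 0.17, adjusted p = 6.56e-16). VPS21 itself was at 155, 144 and 145 TPM against 181, 211 and 191 TPM.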

How the data were processed

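The 43 members and all gene lists were chosen with earlier results of these data known. According to the methods and the submitters' notes, the authors made TruSeq Stranded mRNA libraries, called bases with bcl2fastq 2.17.1.14, trimmed reads with Trimmomatic 0.36 and assigned them with Salmon 0.8.2 to the R64 transcriptome and 92 spike-ins, mix 1 for vehicle and mix 2 for Myr. They deposited TPM, which sum to 1000000 in each of the 42 columns. Of the columns 0 were unused. Read counts are not in this table, so depth is unknown.

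Spike-ins were dropped from the TPM. A gene was tested if its average over the 36 libraries from hours 1 to 6 reached 1 TPM, which held for 5983 genes and for all 43 members. Group means were fitted to log2(TPM + 1) in R 4.3.3 with limma 3.58.1, letting the prior variance follow expression. Differences are between means of log2(TPM + 1) and understate changes of low genes. The 0 h and 0 to 1 h contrasts came from a fit of all 42 libraries. P-values were Benjamini-Hochberg adjusted over all 5983 genes, with a limit of 0.05. The interaction was an F test with a limit of 0.01, taken from the study's methods. Complexes were described by counts and medians without a test.

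Library values and full statistics are given for genes with a difference of at least 1 and groups that do not overlap at any hour of 1 to 6 h, for genes lower at 5 or 6 h, and for the gene with the largest difference at 5 h in each complex. Others named with library values (VPS27, SNX4, VPS41, VPS21 and VPS15) and MVB12 at 3 h were chosen after their values were seen. Of other lists at most 3 called genes were named.

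Motifs were read from the RefSeq R64 genome in Python 3.11.15. Alternatives were pseudocounts of 0.1 and 10, testing all genes or only those averaging 10 TPM, and a constant prior variance. Libraries were also median centred, by the median over genes of TPM relative to the gene's mean. Scaling to spike-ins was relative to the 0 h libraries of the same treatment. Further alternatives were a fit of only the groups compared, a random effect for the letter of the column and each library left out in turn. Every library in which RPL41A exceeded 70000 TPM was also omitted. Removal of a trend on coding length (loess, span 0.5) was added after the data were seen.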

Additional observations from a re-analysis of the deposited data

Results flagged for a closer look

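The difference between Myr and vehicle changed from 4 h to 5 h, by a limma contrast at an adjusted p under 0.05, in 13 of the 43 genes, against 11.7% of all genes where it grew. The count was 2 with spike-in scaling and 3 when only the groups compared were fitted. The 5 h difference minus that at 4 h was 1.40 for VPS36, 1.24 for PEP12, 0.70 for VPS68, 0.69 for VPS17 and 0.64 for SNX4. It was 0.61 for VPS34, 0.59 for HSE1, 0.57 for VPS60, 0.54 for IST1, 0.52 for VPS27, 0.52 for VPS8, 0.48 for DID2 and 0.42 for SNF8. Of these 13 genes 12 also had unequal hourly differences in the interaction test. For 7 further members the interaction alone passed, by limma's F test at the limit of 0.01, which 22.6% of all genes passed. With spike-in scaling 5 members passed in all, and the share of all genes in that setting is not known. The p was 0.000557 for DID4, 0.0019 for SNF7, 0.00203 for VPS26, 0.00774 for VPS30, 0.0079 for VPS35, 0.00813 for VPS21 and 0.00893 for VPS3.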

How the results depend on the processing

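No paired analysis was possible because the columns carry no replicate number, only a letter whose meaning across hours and treatments the sources used here do not give. With the column letter as a random block (estimated correlation 0.18, with deviations of the same letter correlated at 0.0264 and of other letters at -0.0109) 7 genes passed at 2 h, and the other counts stayed within 1.5 times. Of the counts of genes that passed, that at 5 h (39) stayed between 28 and 42 under every alternative but removal of the coding length trend, which gave 25 (24 higher, 1 lower). That removal also gave 1 at 1 h, 0 at 2 h, 3 at 3 h and 25 over the mean of 1 to 6 h (20 higher, 5 lower). Of all genes it gave 20.2% higher and 27.8% lower at 5 h, and 24.2% and 25.8% over the mean. At 1 h these shares were 7.69% and 6.74%, at 2 h 6.29% and 5.9%, and at 3 h 4.09% and 4.06%. Median centring gave 12 at 0 h (9 higher, 3 lower), against 13.3% higher and 13.6% lower of all genes. It gave 8 at 2 h and 4 at 3 h. Spike-in scaling gave 0 at 0 h, 42 at 2 h, 42 at 4 h, 23 at 6 h, 2 for the step from 4 to 5 h, 20 and 22 from 1 to 6 h in vehicle and with Myr, 22 from 0 to 1 h and 5 for the interaction. Fitting only the groups compared gave 0 at 0 h, where 0 of all 5983 genes passed. It gave 15 at 2 h, 4 at 3 h, 0 at 4 h, 18 at 6 h and 3 for the step. Without the RPL41A-rich libraries 12 passed at 0 h, 16 at 2 h, 0 at 3 h, 1 at 4 h, 19 at 6 h and 29 for the step. A pseudocount of 10 gave 8 at 0 h, against 10% higher and 5.58% lower of all genes. A minimum mean of 10 TPM gave 2 at 2 h, against 17% and 3.06%. MVB12 reversed under spike-in scaling, to 0.20 at 3 h, 0.24 over the mean and 0.0073 from 0 to 1 h. Counts over all genes moved too: with spike-in scaling 0.401% were higher at 0 h, 94.6% at 2 h, 90.5% at 4 h and 44.3% at 6 h. The cause of these moves was not tested.

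With each library left out in turn the counts ranged from 1 to 6 at 0 h, 0 to 0 at 1 h, 0 to 4 at 2 h, 2 to 35 at 3 h, 0 to 6 at 4 h, 31 to 39 at 5 h and 9 to 10 at 6 h. They ranged from 40 to 41 for the mean of 1 to 6 h, 14 to 29 for the interaction, 4 to 33 for the step, 30 to 32 and 37 to 38 from 1 to 6 h in vehicle and with Myr, and 39 to 40 from 0 to 1 h.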
